A study of Mus musculus with 12 samples.

Results

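The genes described are Aatf, the gene that the vector of this study was made to silence, its complex partners Ngdn and Nol10, and 37 other factors that make and process ribosomal RNA in the nucleolus. They were chosen by name, as a list of 40 symbols, out of 50499 genes in a table of counts from mouse liver. All 40 were found and all 40 passed the filter on low counts that left 11934 genes to be tested.

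Liver RNA was sequenced from male C57BL/6 mice (the growth protocol gives the substrain C57Bl/6NCrl) in 12 libraries, 4 groups of 3. Mice began a diet at 6 weeks of age, received an AAV8 vector in the tail vein after 12 weeks, and were followed for another 12 weeks, to an age of about 30 weeks. The groups were a Western diet with sugar water and AAV8-TBG-siAATF (Western siAATF), the same diet with AAV8-TBG-Null (Western null), chow with normal water and AAV8-TBG-siAATF (chow siAATF), and chow with AAV8-TBG-Null (chow null). The labels give the genotype of the mice as wild type, so no group carries a deletion, and every group received AAV8. The TBG promoter is active in hepatocytes, and the counts come from whole tissue. The share of Aatf counts from each cell type was not measured. The study asked what silencing Aatf in the liver does in diet-induced steatohepatitis, a fatty liver disease with inflammation.

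Ribosomes are assembled in the nucleolus, where RNA polymerase I transcribes a long precursor of the 18S, 5.8S and 28S rRNAs. Small nucleolar RNPs modify the precursor, the small subunit processome cuts out and folds its 18S part, and a separate set of factors builds the large subunit. In human cells AATF, NGDN and NOL10 form a complex that acts early on the small subunit, and AATF is also known as a partner of RNA polymerase II and of the retinoblastoma protein. MYC is known to raise many genes of this pathway when cells grow.

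None of the 40 genes passed the threshold for the vector or for the diet. The vector and diet comparisons share libraries (each group enters 2 of the 4 pairwise ones), so they are not independent. With edgeR's quasi-likelihood test and Benjamini-Hochberg adjustment over all genes tested, at a threshold of 0.05, 0 of 40 were called in each of 5 comparisons. For Western siAATF against Western null 0.871% of all genes were called (0.31% higher, 0.561% lower), for chow siAATF against chow null 0%, for Western null against chow null 13.2% (6.44% higher, 6.77% lower), and for Western siAATF against chow siAATF 1.48% (0.763% higher, 0.721% lower). For the difference of the vector effect between diets it was 0.193% (0.101% above 0, 0.0922% below 0), and 25 of the 40 were above 0 there, against 55% of all genes. At an unadjusted p under 0.05 the counts of the 40 were 1, 1, 3, 2 and 1 in the same order of comparisons, against 10.7%, 2.39%, 28.5%, 15.2% and 9.16% of all genes. DESeq2 and limma-voom called 0 of the 40 in 4 of the 5. For Western null against chow null DESeq2 called 1 (and 14.2% of all genes) and limma-voom 2 (and 15.6%), which are described with that comparison. In bulk tissue, fewer cells of a type and less RNA per cell cannot be told apart.

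Libraries held 1646853 to 13469819 counts, of which the 18S rRNA gene took 0.871% to 50.8%. The 40 genes together took 0.101% to 0.161% of the counts outside that gene, 1869 to 13774 counts per library, with a median gene at 29 to 264.5 counts. In each library 0 to 3 of the 40 had under 10 counts. The 18S share is given because 4 libraries exceeded 25%: Western siAATF replicate 2, chow siAATF replicate 1 and chow null replicates 1 and 2. Hepatocyte markers (8 genes, Alb and Apoa1 among them) summed to 56322 to 84961 CPM in Western siAATF, 67840.2 to 76996 CPM in Western null, 92252 to 98539.9 CPM in chow siAATF and 86123 to 113482 CPM in chow null libraries. CPM are counts scaled to a common library size with TMM factors. The labels do not say that each replicate number is a separate mouse, so p-values measure the spread between these libraries, which may be technical.

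The 40 genes covered a range of levels. Ncl, which encodes nucleolin, a phosphoprotein that binds the rRNA precursor, was the most counted at a mean of 172 CPM over 12 libraries. Ubtf, the RNA polymerase I factor that keeps rRNA genes open, followed at 79.1 CPM, then Rrp1, a large subunit factor, at 71.9 CPM and Npm1, the nucleolar histone chaperone nucleophosmin, at 66.5 CPM. At the low end stood Nob1, the nuclease of the last 18S cut, at 5.71 CPM and Gar1, a small protein of box H/ACA RNPs, at 2.09 CPM. Counts were taken over the whole span of a gene, introns included, so levels between genes are given per kb of span. Such a value is not a level per kb of mRNA, because the share of exons in the span differs between genes. On that scale Imp3, a protein of the U3 small nucleolar RNP with a span of 0.899 kb, led at 26 CPM per kb. Rrs1 (12.6 CPM per kb) and Ncl (11.7 CPM per kb) came next, and Aatf, which spans 90.752 kb, stood at rank 35 with 0.331 CPM per kb. Nol10 was last at 0.158 CPM per kb. Exon length in GENCODE M21 equals 103% of the span of Imp3, whose span comes from another annotation, and 100% of that of Rrs1. It equals 2.01% of the span of Aatf and 3.70% of that of Nol10. How far the ranks per kb follow this share was not tested.

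**Figure D1:**
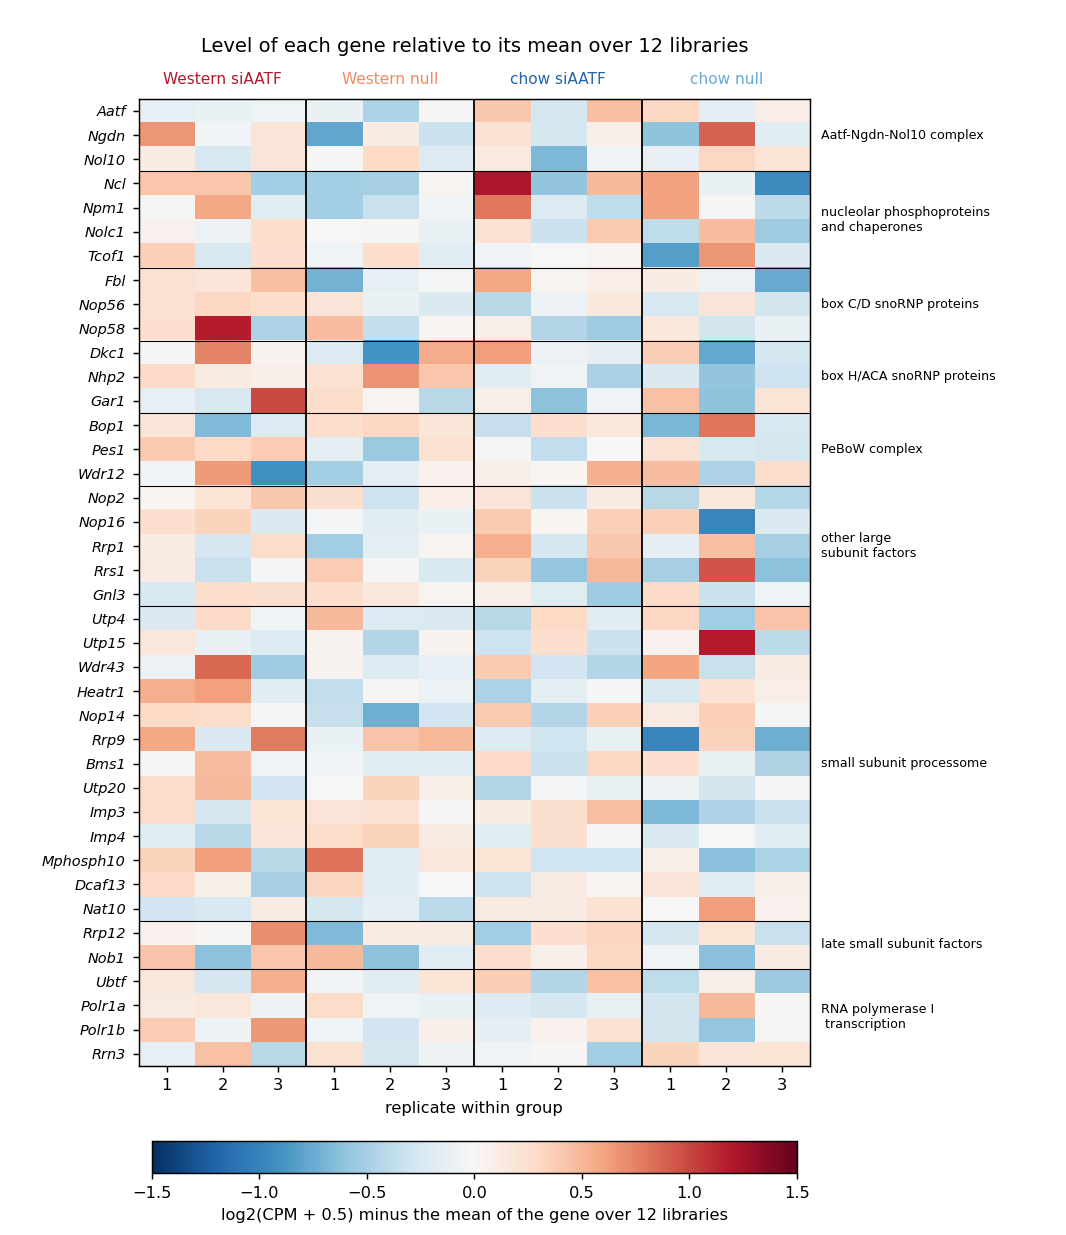
Level of each of the 40 genes in each library, as log2(CPM + 0.5) minus the mean of that gene over 12 libraries (color), with genes ordered by role and libraries by group. No group forms a block of one color over the 40 genes. Genes above their own mean were counted on edgeR's log2 CPM with a prior count of 2. There were 22 to 31 in Western siAATF libraries and 14 to 20 in Western null. Chow siAATF libraries had 14 to 25 and chow null libraries 14 to 20. The Western siAATF counts were above those of both null groups, and the same count over all genes was not made.

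The 3 genes of the Aatf complex were measured first, since Aatf is the target. Aatf (GRCm39 chromosome 11, 84313682 to 84404433, minus strand) had 122, 121 and 64 counts in Western siAATF libraries 1 to 3 and 56, 62 and 334 counts in Western null libraries. It had 148, 399 and 194 counts in chow siAATF libraries and 322, 47 and 363 counts in chow null libraries. Scaled by library size, Aatf averaged 27.5 ± 0.599 CPM in Western siAATF and 26.3 ± 4.60 CPM in Western null, and 34.8 ± 8.86 CPM in chow siAATF and 31.6 ± 5.13 CPM in chow null (SD, n = 3 each). The groups overlapped within each diet, and neither siAATF group averaged below its null group.

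The vector fold change of Aatf, on the log2 scale with its SE, was 0.06 ± 0.25 for Western mice (95% interval -0.47 to 0.59) and 0.11 ± 0.24 for chow mice (-0.40 to 0.63). Over 22 alternative analyses per comparison it ranged from -0.09 to 0.19 and from 0.01 to 0.34, and it was called in none. For Western mice it was -0.09 when Western null replicate 2 was left out, and -0.08 when all libraries were thinned to one depth. A lower level of Aatf was therefore not measured in the libraries labelled siAATF, and below the name siAATF stands for that label. Exons make up 1822 bases, 2.01% of the span of Aatf in the GENCODE M21 annotation (GRCm38), and the counts do not separate exon from intron reads, so spliced mRNA was not analysed on its own here. Between diets Aatf gave -0.28 ± 0.25 in null libraries and -0.33 ± 0.25 in siAATF libraries, neither called (adjusted p = 0.496 and 0.581, edgeR's quasi-likelihood test).

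The upstream region of Aatf is shown because it holds the sequence motif that MYC and related factors bind. It is the RefSeq window of 250 bases before the start site (GRCm38.p6 chr11:84513502-84513751, minus strand), with the E-box CACGTG and the ETS-type motif CCGGAAG in capitals.
Aatf upstream: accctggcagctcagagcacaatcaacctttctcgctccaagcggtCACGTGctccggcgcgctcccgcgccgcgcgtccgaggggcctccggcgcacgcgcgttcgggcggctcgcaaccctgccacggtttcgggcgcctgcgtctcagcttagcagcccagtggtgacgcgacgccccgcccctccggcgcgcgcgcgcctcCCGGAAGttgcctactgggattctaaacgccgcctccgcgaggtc
A match is a description of letters and not a measured binding site.

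Ngdn (GRCm39 chromosome 14, 55252911 to 55261595, plus strand), which encodes neuroguidin, had 27.6, 16.8 and 19.8 CPM in Western siAATF libraries and 9.87, 18.7 and 13.7 CPM in Western null libraries. In chow siAATF it had 20.1, 14.3 and 18.4 CPM, against 11.2, 32.2 and 15.3 CPM in chow null. On the Western diet the siAATF values were the higher on average and overlapped the null values, and on chow a single null library, replicate 2, was far above the rest. For Ngdn the vector gave a log2 fold change of 0.59 ± 0.36 in Western mice (adjusted p = 0.616, edgeR's quasi-likelihood test) and -0.08 ± 0.36 in chow mice (adjusted p = 1). The chow value turned to 0.39 without chow null replicate 2 and to 0.07 without chow siAATF replicate 2. Between diets Ngdn gave -0.37 ± 0.37 in null libraries, 0.09 without chow null replicate 2, and 0.30 ± 0.35 in siAATF libraries.

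Nol10 (GRCm39 chromosome 12, 17398423 to 17480101, plus strand), which encodes a WD-repeat nucleolar protein, had 13.7, 10.7 and 14.5 CPM in Western siAATF libraries and 12.8, 15.7 and 11 CPM in Western null libraries. In chow siAATF libraries it had 14, 7.76 and 12.1 CPM, against 11.5, 15.8 and 14.7 CPM in chow null libraries. These groups overlapped on both diets. With the vector, Nol10 gave a log2 fold change of -0.02 ± 0.30 in Western mice, 0.11 without Western siAATF replicate 2 and 0.11 without Western null replicate 2. On chow it was -0.32 ± 0.29 (adjusted p = 1, edgeR's quasi-likelihood test). Between diets it was -0.09 ± 0.29 in null libraries, 0.04 without Western null replicate 3, and 0.22 ± 0.29 in siAATF libraries, -0.04 without chow siAATF replicate 2.

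**Figure D2:**
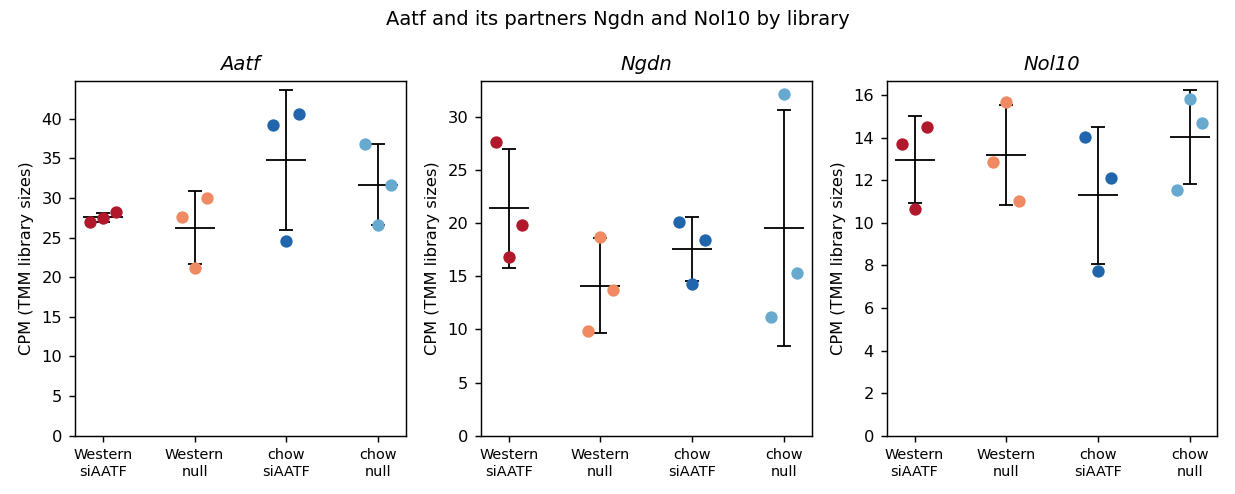
CPM of Aatf, Ngdn and Nol10 (vertical axes, starting at 0) in each library of the 4 groups, with the group mean (dash) and SD (bars, n = 3). Aatf lies between 21.1 and 40.5 CPM in all libraries and the siAATF groups do not lie below the null groups, and the chow null spread of Ngdn comes from 1 library at 32.2 CPM.

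Western siAATF against Western null sets the silencing vector against the empty one on the fatty-liver diet. Of the 40, 30 had a log2 fold change above 0, against 55.4% of all genes, and the median was 0.18, against 0.06 over all genes tested. In 4 genes every Western siAATF library was above every Western null library (7.69% of all genes did the same), and in 0 it was the reverse (7.87% of all genes). These 4 were Fbl, Nop56, Pes1 and Nop14. The 95% interval of the fold change excluded a halving for 38 of the 40 and a doubling for 24, and lay within 2-fold either way for 23.

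Nop14, a factor of the small subunit processome, had the lowest p in that comparison. It had 17.2, 17 and 14.1 CPM in Western siAATF libraries and 10.9, 8.18 and 11.3 CPM in Western null libraries, 2 sets that did not overlap. The log2 fold change was 0.67 ± 0.29 (adjusted p = 0.415, edgeR's quasi-likelihood test), so it did not pass. In chow libraries, Nop14 had 18.5, 10.2 and 18 CPM with siAATF and 15.4, 18.1 and 13.8 CPM with the null vector, and the fold change was -0.02 ± 0.28.

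Heatr1, a large scaffold protein that the processome and RNA polymerase I transcription both need, had 37.8, 39.7 and 22.9 CPM in Western siAATF libraries and 19.7, 25.9 and 24.2 CPM in Western null libraries. Western siAATF replicate 3 lay inside the null range and the other two above it (log2 fold change 0.53 ± 0.26, adjusted p = 0.489, edgeR's quasi-likelihood test). Pes1, a member of the PeBoW complex of the large subunit, had 31.4, 29.5 and 31.3 CPM in Western siAATF libraries and 21.7, 16 and 28 CPM in Western null libraries. The Western siAATF values of Pes1 lay close together and above all 3 null values (0.47 ± 0.26, adjusted p = 0.57), with a value of 0.27 without Western null replicate 2 and 0.72 without Western null replicate 3. Fbl, the enzyme fibrillarin that methylates rRNA, had 18.4, 17.9 and 21.6 CPM in Western siAATF libraries and 9.38, 14.3 and 15.4 CPM in Western null libraries and also did not overlap (0.52 ± 0.30, adjusted p = 0.586). Nop56, a core protein of the same box C/D RNPs, had 19.7, 20.9 and 20.2 CPM in Western siAATF libraries and 19.3, 15.7 and 14.4 CPM in Western null libraries (0.32 ± 0.26, adjusted p = 0.719).

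On chow the vector comparison called 0 of all 11934 genes, 285 (2.39%) at an unadjusted p under 0.05, and DESeq2 and limma-voom called 0 as well. Among the 40, 24 were above 0, against 46.4% of all genes, with a median of 0.06 against -0.03. That median was 0.0023 without chow siAATF replicate 3 (all genes 0.012), 0.0029 without chow null replicate 3 (all genes 0.0073) and 4.9e-05 with a correction for gene span (all genes -0.03). The interval excluded a halving for 35 and a doubling for 32. Imp3 was the only one of the 40 whose chow siAATF libraries all stood above the chow null libraries (4.25% of all genes), and Rrn3 the only one whose libraries all stood below (4.32%).

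Imp3 had 24.6, 27 and 31.4 CPM in chow siAATF libraries and 14.1, 16.4 and 18 CPM in chow null libraries, with a log2 fold change of 0.78 ± 0.23 (adjusted p = 1, edgeR's quasi-likelihood test). In Western libraries Imp3 had 27.6, 19.1 and 26.4 CPM with siAATF and 26.2, 26.6 and 23.1 CPM with the null vector, close to the chow siAATF values, so chow null was the lowest of the 4 groups for this gene. The difference of its vector effect between diets, Western minus chow, was -0.83 ± 0.33 (adjusted p = 0.464). Rrn3, the factor that makes RNA polymerase I able to start, had 13.8, 14.5 and 9.82 CPM in chow siAATF libraries and 18.1, 16.4 and 16.5 CPM in chow null libraries (-0.42 ± 0.28, adjusted p = 1). Chow siAATF replicate 3 had the lowest Rrn3 value of all 12 libraries.

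Fbl, Ubtf and Nop16 completed the lowest p-values on chow. Fbl had 23.5, 16.1 and 16.7 CPM in chow siAATF libraries and 16.9, 14.7 and 9.05 CPM in chow null libraries (0.48 ± 0.29). Ubtf had 99.7, 56.6 and 105 CPM in chow siAATF libraries and 58.8, 81.9 and 52.5 CPM in chow null libraries (0.44 ± 0.28), with replicate 2 of each group crossing into the other group. Nop16, a large subunit factor, had 25.9, 20.1 and 25.3 CPM in chow siAATF libraries and 25.1, 9.60 and 16.7 CPM in chow null libraries (0.41 ± 0.29), and its chow null replicate 2 was the lowest of all 12. With a library left out, Nop16 ran from 0.18 (without chow null replicate 2) to 0.78 (without chow null replicate 1). Fbl ran from 0.24 (without chow null replicate 3) to 0.73 (without chow null replicate 1), and was 0.29 without chow siAATF replicate 1. Each of these 3 had an adjusted p of 1 (edgeR's quasi-likelihood test).

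**Figure D3:**
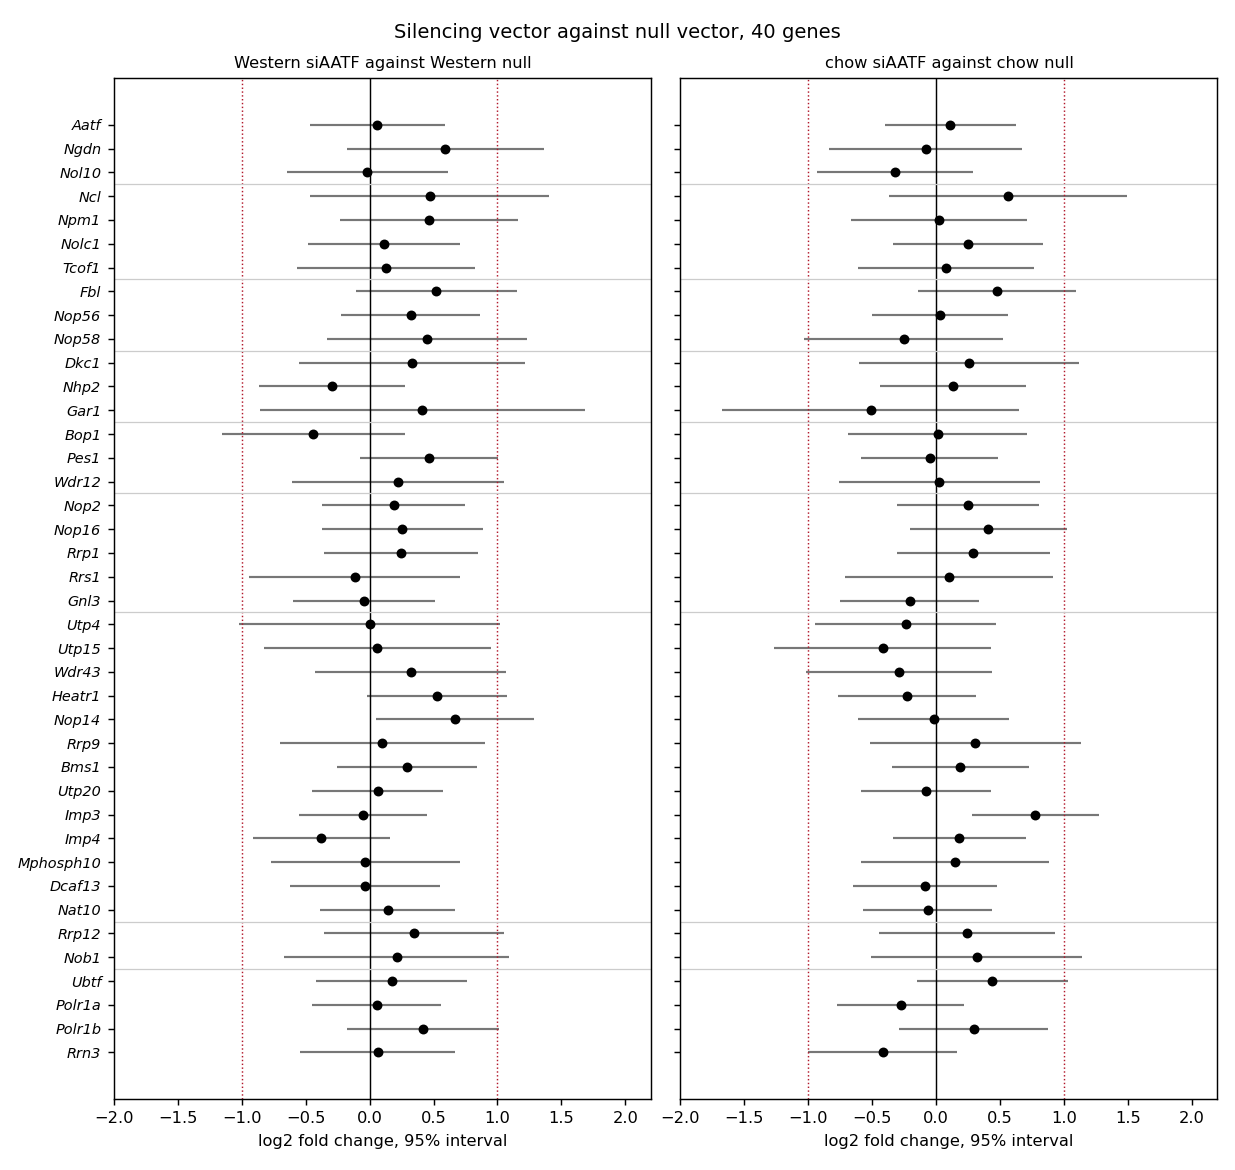
Log2 fold change (points) and 95% interval (lines) of each of the 40 genes for siAATF against null on the Western diet (left) and on chow (right); dotted lines mark a doubling and a halving. Only Nop14 on the Western diet and Imp3 on chow have an interval that leaves out 0, and Aatf lies at 0.06 and 0.11.

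Set against chow, the Western diet changed 1577 genes in null mice, 769 higher and 808 lower, and called none of the 40 nucleolar genes. Of the 40, 20 were above 0 (48.4% of all genes were), with a median of -0.00, against -0.03 over all genes. The interval excluded a halving for 31 and a doubling for 36. Nhp2, Imp3 and Imp4 were higher in every Western null library than in any chow null library (17.7% of all genes), and Nop14 and Nat10 were lower (17% of all genes).

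Nhp2, which binds the RNA of box H/ACA RNPs and of telomerase, came nearest to the threshold. It had 12.3, 17 and 14.1 CPM in Western null libraries and 8.91, 6.78 and 8.36 CPM in chow null libraries, a log2 fold change of 0.83 ± 0.27 with an adjusted p of 0.0537 by edgeR's quasi-likelihood test. It was called in 5 of 22 alternatives, DESeq2 (0.84, adjusted p = 0.0423), limma-voom (0.79, adjusted p = 0.0443), RLE size factors (0.85, 0.0481), the 18S gene left out of library sizes (0.85, 0.0475) and Western siAATF replicate 3 left out (0.83, 0.0463). Over all 22 its log2 fold change ran from 0.48 to 0.93 and its adjusted p from 0.0423 to 0.281. In siAATF libraries Nhp2 had 12.8, 11.6 and 11 CPM on the Western diet and 9.26, 10.1 and 7.32 CPM on chow, again without overlap (0.40 ± 0.27, adjusted p = 0.519).

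Rrp9, a WD-repeat protein bound to U3 RNA, gave the largest diet fold change of the 40 in null mice. It had 7.41, 10.9 and 11.5 CPM in Western null libraries and 3.77, 10.2 and 4.61 CPM in chow null libraries, and chow null replicate 2 lay within the Western values (0.87 ± 0.39, adjusted p = 0.154, edgeR's quasi-likelihood test). Limma-voom called it (1.16, adjusted p = 0.0317), and so did edgeR without chow null replicate 2 (1.26, adjusted p = 0.0316), with adjusted p from 0.0316 to 0.438 over 22 alternatives. In siAATF libraries Rrp9 gave 0.67 ± 0.38 (adjusted p = 0.428).

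Imp3 gave 0.64 ± 0.24 on the Western diet in null libraries (adjusted p = 0.0868, edgeR's quasi-likelihood test), which rests on the same low chow null values as its vector comparison on chow. Imp4, its partner on U3 RNA, had 19.7, 20.8 and 17.8 CPM in Western null libraries and 13.9, 16.4 and 14.4 CPM in chow null libraries (0.39 ± 0.25, adjusted p = 0.319). Nop14 gave -0.60 ± 0.29 (adjusted p = 0.183), and the Western null libraries that enter it also enter the vector comparison on the Western diet. Nat10, the acetyltransferase of 18S rRNA, had 17.8, 19.4 and 16.2 CPM in Western null libraries and 21.3, 33.3 and 22.4 CPM in chow null libraries (-0.50 ± 0.25, adjusted p = 0.19).

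Between diets in siAATF mice, 28 of the 40 were above 0, against 53.8% of all genes, with a median of 0.11 against 0.04. The libraries did not overlap for 4 genes that were higher on the Western diet, Nop56, Nhp2, Pes1 and Polr1a (9.24% of all genes), and for Nat10, which was lower (8.36%). Nop58, the partner of Nop56, had 14.8, 28.6 and 8.80 CPM in Western siAATF libraries and 13.2, 8.99 and 8.36 CPM in chow siAATF libraries (0.82 ± 0.37, adjusted p = 0.298, edgeR's quasi-likelihood test). Its value was 0.26 without Western siAATF replicate 2, the library at 28.6 CPM. Heatr1 had 37.8, 39.7 and 22.9 CPM in Western siAATF libraries and 18.3, 23.3 and 25.1 CPM in chow siAATF libraries (0.60 ± 0.25, adjusted p = 0.27). Pes1 gave 0.48 ± 0.25 and Utp20, a large protein of the processome, 0.38 ± 0.24 (adjusted p = 0.386 and 0.481). Polr1a had 33.6, 34.5 and 29 CPM in Western siAATF libraries and 26.7, 25.4 and 28.2 CPM in chow siAATF libraries (0.28 ± 0.23), and Nat10 17.5, 18.2 and 23.3 CPM in Western siAATF libraries and 23.5, 23.3 and 25.1 CPM in chow siAATF libraries (-0.30 ± 0.24). This comparison shares no library with that of the null groups.

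**Figure D4:**
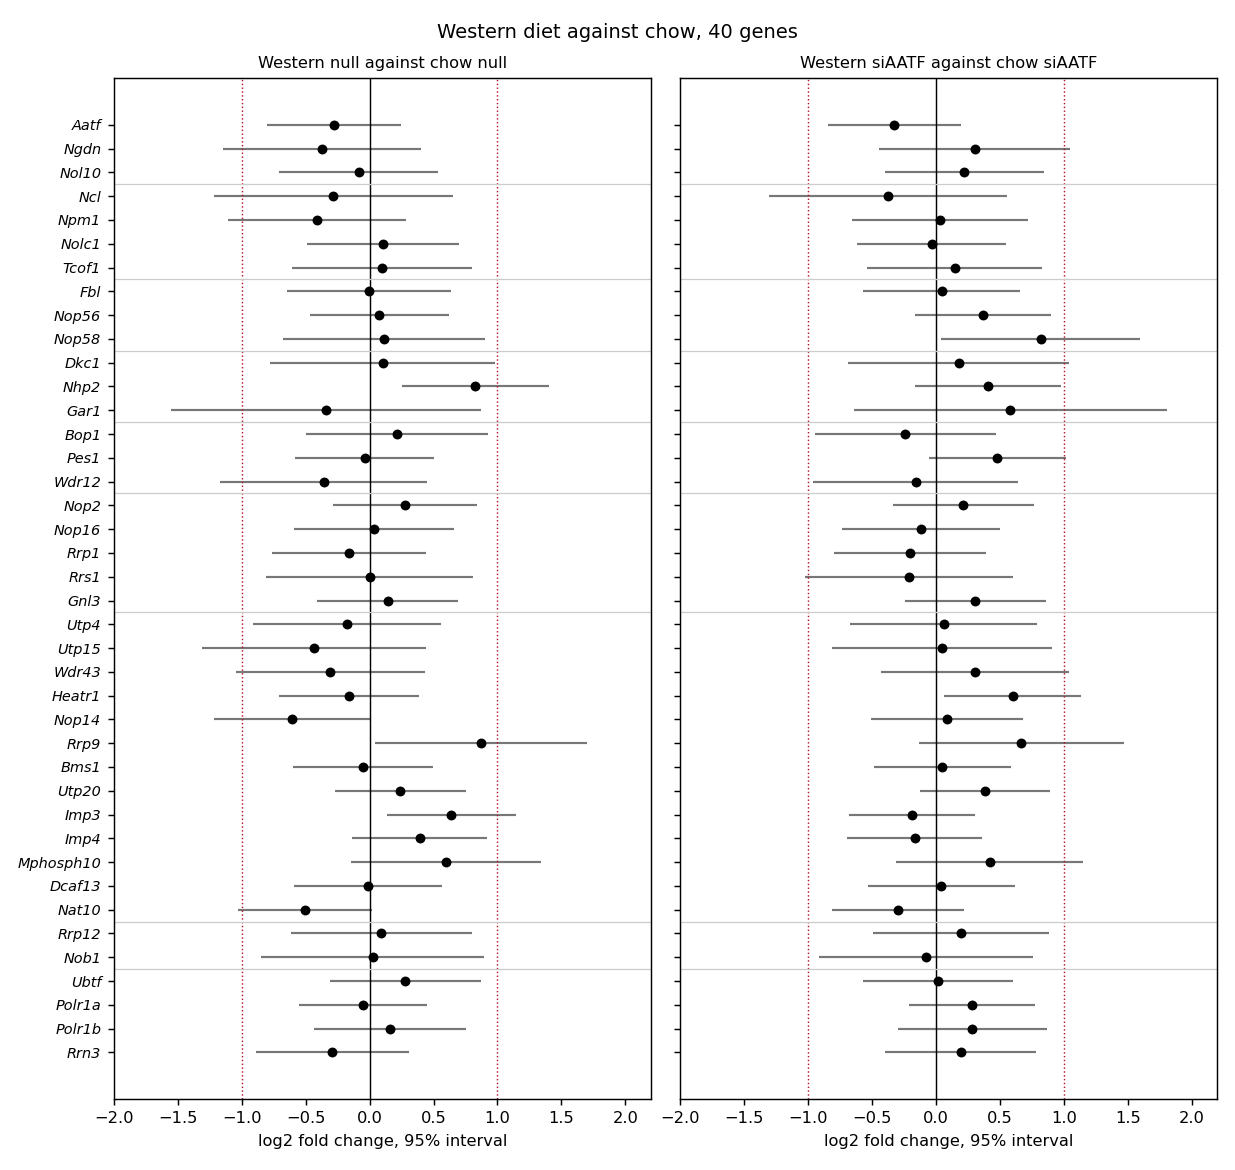
Log2 fold change (points) and 95% interval (lines) of each of the 40 genes for the Western diet against chow in null mice (left) and in siAATF mice (right); dotted lines mark a doubling and a halving. Nhp2, Imp3 and Rrp9 on the left and Heatr1 and Nop58 on the right have intervals that leave out 0, and none passed the threshold over all genes.

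By role, of the nucleolar phosphoproteins Ncl varied most between libraries of a group. It had 209, 209 and 109.6 CPM in Western siAATF, 109.6, 111 and 161 CPM in Western null, 363, 104 and 219.9 CPM in chow siAATF and 238, 146 and 80.6 CPM in chow null libraries. Chow siAATF replicate 1, one of the 4 libraries rich in 18S, was the highest, and chow null replicate 3 the lowest. Ncl alone made up 10.2% to 27.4% of the summed CPM of the 40. Ncl gave log2 fold changes of 0.47 ± 0.44 for the vector in Western mice, 0.56 ± 0.44 for the vector on chow and -0.28 ± 0.44 for the diet in null mice, none called. Npm1 ran from 44.4 to 110.3 CPM over 12 libraries, with chow siAATF replicate 1 again the highest. Nolc1, a chaperone of small nucleolar RNPs, ran from 19.3 to 39 CPM, and Tcof1, the treacle protein that serves rRNA genes, from 9.37 to 27.1 CPM.

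Among the proteins of box C/D RNPs, all 3 had a log2 fold change above 0 for the vector on the Western diet (Fbl 0.52, Nop56 0.32, Nop58 0.45). On chow they were 0.48, 0.03 and -0.25. None was called in either. Of the box H/ACA proteins, Dkc1, the pseudouridine synthase dyskerin, gave 0.33 on the Western diet and 0.26 on chow, Nhp2 -0.29 and 0.13, and Gar1 0.41 and -0.51. Gar1 was measured on few counts, 140 in all 12 libraries, and its intervals were the widest of the 40 (-0.86 to 1.68 on the Western diet).

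None of the 8 large subunit factors was called for the vector or the diet. In the PeBoW complex, Bop1 had 31.8, 17.5 and 24.2 CPM in Western siAATF libraries and 33.6, 34.8 and 31.7 CPM in Western null libraries (-0.44 ± 0.34), where Pes1 gave 0.47 ± 0.26, and Wdr12 gave 0.22 ± 0.39. The vector fold changes of Pes1, Bop1 and Wdr12 on chow were -0.05, 0.01 and 0.02. Nop2, an rRNA methyltransferase, Nop16, Rrp1, Rrs1 and Gnl3, the GTP-binding protein nucleostemin, lay between -0.12 and 0.26 on the Western diet, and the intervals of all 5 were within 2-fold either way. For these 5 the diet fold change in null mice lay between -0.16 and 0.28.

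Of the 13 genes of the small subunit processome, 8 were above 0 for the vector on the Western diet and 5 on chow, with 0 called in each. The early UTP proteins Utp4, Utp15, Wdr43 and Heatr1 gave -0.00, 0.06, 0.32 and 0.53 on the Western diet and -0.24, -0.42, -0.29 and -0.23 on chow. Bms1, a GTPase of the processome, ran from 24.7 to 47 CPM over the 12 libraries, and Utp20 from 22 to 42.4 CPM. Mphosph10, which holds Imp3 and Imp4 on U3 RNA, had 19.3, 9.54 and 12.1 CPM in Western null libraries and 11.4, 6.78 and 7.57 CPM in chow null libraries (0.60 ± 0.35, adjusted p = 0.275, edgeR's quasi-likelihood test), with one pair of values crossing. Dcaf13 ran from 10.1 to 18.3 CPM, and its 4 pairwise fold changes were -0.04, -0.09, -0.01 and 0.04. The late factors Rrp12, an export factor of the small subunit, and Nob1 gave 0.35 and 0.21 for the vector on the Western diet, and 0.24 and 0.32 on chow.

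In the RNA polymerase I machinery, Ubtf averaged 87.6 ± 23.9 CPM in Western siAATF, 77.3 ± 10.2 CPM in Western null, 86.9 ± 26.4 CPM in chow siAATF and 64.4 ± 15.5 CPM in chow null (SD, n = 3 each). The largest subunit, Polr1a, averaged 32.4 ± 2.92 CPM in Western siAATF, 31.5 ± 4.81 CPM in Western null, 26.8 ± 1.40 CPM in chow siAATF and 33 ± 9.06 CPM in chow null. The second subunit, Polr1b, averaged 16.7 ± 4.23 CPM in Western siAATF, 12.2 ± 1.59 CPM in Western null, 13.5 ± 1.81 CPM in chow siAATF and 10.7 ± 2.34 CPM in chow null. For the vector on the Western diet Polr1b gave 0.42 ± 0.28 (adjusted p = 0.658, edgeR's quasi-likelihood test), Ubtf 0.17 ± 0.28, Polr1a 0.05 ± 0.24 and Rrn3 0.06 ± 0.29.

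The summed CPM of the 40 was 1136, 1138 and 1014 in Western siAATF libraries 1 to 3, 923, 898 and 996 in Western null, 1325, 848 and 1133 in chow siAATF and 1056, 1078 and 789.9 in chow null. Every Western siAATF sum was above every Western null sum, and the chow groups overlapped each other and both Western groups. Without Ncl the sums were 927, 929 and 904 in Western siAATF, 813, 787 and 836 in Western null, 962, 744 and 913 in chow siAATF and 818, 932 and 709 in chow null.

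Single libraries stood out for single genes. Western siAATF replicate 2, with 50.8% of its counts on 18S, had 28.6 CPM of Nop58, 36.8 CPM of Wdr43, 13.8 CPM of Dkc1 and 12.7 CPM of Wdr12, each the highest of its group. Over all 40 genes it was higher than replicate 3, the library of that group with the least 18S, for 20. The median log2 difference was -0.01, against 0.04 over all genes. Replicate 2 was lower by over 1 on the log2 scale for Gar1 (-1.30), Nob1 (-1.07) and Rrp9 (-1.01). The same contrast of most with least 18S was made in the other groups. Chow siAATF replicate 1 was higher than replicate 2 for 26, with a median of 0.32 against 0.00 over all genes. Chow null replicate 2 was higher than replicate 3 for 23 (0.15 against -0.10), and Western null replicate 2 than replicate 3 for 18 (-0.07 against -0.01). Chow null replicate 2, the library with the fewest counts on these genes after Western null replicate 1, had the highest value of all 12 for 9 genes: Ngdn (32.2 CPM), Nol10 (15.8 CPM), Bop1 (49.1 CPM), Rrs1 (47.4 CPM), Utp15 (15.8 CPM), Nat10 (33.3 CPM), Polr1a (42.9 CPM), Nolc1 (39 CPM) and Tcof1 (27.1 CPM). Without the 4 libraries over 25% 18S, chow null kept 1 library, which was assumed to vary like the libraries of the other groups. In that fit 0 of the 40 were called in each of the 5 comparisons, of which those with chow null rest on that library, and the diet median in null mice was 0.22, against 0.07 over all genes.

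A neighbour overlaps 16 of the genes, and reads in the overlap may not have been counted for them, although the overlap was at most 8.77% of the span (Bop1). Inside 12 of the 40 lie 26 nested genes, 18 of them small nucleolar RNA genes in Ncl, Nop56, Nop58, Dkc1, Gnl3 and Wdr43, and all 26 were listed at 0 in all libraries. The intronic small nucleolar RNAs of these hosts were therefore not measured. For the vector on the Western diet the 6 hosts had a median log2 fold change of 0.33 and the other 34 genes 0.13, and on chow the hosts had -0.09 and the others 0.09, with 0 called in each.

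In the rest of the pathway few genes passed the threshold. Their calls are those of the edgeR fit of all 12 libraries. How they change with a library left out is not given here. Of 125 other factors tested (RNA polymerase I subunits, small and large subunit factors, the RNA exosome and the Myc network), 0 were called for the vector on either diet, with medians of 0.14 on the Western diet and -0.00 on chow. For the diet in null mice 2 were called higher and 0 lower, where 6.44% of all genes were called higher and 6.77% lower. Mrto4, a factor of the large subunit stalk, had 25.2, 16.7 and 18.1 CPM in Western null libraries and 11.8, 10.2 and 10.1 CPM in chow null libraries (0.88 ± 0.26, adjusted p = 0.0328, edgeR's quasi-likelihood test). Myc had 13.3, 12.3 and 15.1 CPM in Western null libraries and 4.57, 8.47 and 3.40 CPM in chow null libraries (1.46 ± 0.43, adjusted p = 0.035). Both sets were free of overlap. For the diet in siAATF mice, where 1.48% of all genes were called, 1 was called higher, Riok2, a kinase of late small subunit maturation, with 32.9, 45.8 and 38.3 CPM in Western siAATF libraries and 17.5, 16.6 and 15.5 CPM in chow siAATF libraries (1.24 ± 0.26, adjusted p = 0.0294).

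Of 4 RNA components of the pathway, 3 were called higher on the Western diet in null mice, against 6.44% of all genes. In siAATF mice 1 was, against 0.763%. For the vector 0 of the 4 were called on either diet. On chow 4 were above 0, with a median log2 fold change of 1.01, and on the Western diet 3 were, with a median of 0.28. The chow null libraries enter both the diet comparison in null mice and the vector comparison on chow. How the calls of these RNA components change with a correction for gene span or with a library left out is not given here. Rmrp, the RNA of the RNase MRP enzyme that cuts the rRNA precursor, had 636, 709.8 and 555 CPM in Western null libraries and 254, 88.7 and 259.7 CPM in chow null libraries (1.65 ± 0.34, adjusted p = 0.00523, edgeR's quasi-likelihood test). In siAATF mice it had 1040.0, 631 and 1079 CPM on the Western diet and 210.3, 267 and 263 CPM on chow (1.89 ± 0.35, adjusted p = 0.0134). The U3 RNA gene Snord3a, partner of Imp3, Imp4, Mphosph10 and Rrp9, had 13.8, 23.2 and 41 CPM in Western null libraries and 4.80, 5.08 and 15.1 CPM in chow null libraries (1.60 ± 0.44, adjusted p = 0.0254), and one pair of values crossed. Terc, the telomerase RNA that Dkc1, Nhp2 and Gar1 bind, had 19.7, 22.8 and 14.9 CPM in Western null libraries and 2.51, 4.52 and 4.70 CPM in chow null libraries (2.31 ± 0.57, adjusted p = 0.0163). Snord118, the gene of the U8 RNA of large subunit processing, was not called: it had 0.494, 3.75 and 16.9 CPM in Western null libraries and 2.40, 2.26 and 2.87 CPM in chow null libraries (1.66 ± 0.85, adjusted p = 0.22), and in siAATF mice 9.29, 11.3 and 2.64 CPM on the Western diet and 15.9, 3.69 and 15.9 CPM on chow (-0.50 ± 0.78, adjusted p = 0.823).

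Some genes of the ribosomal proteins themselves, the products the 40 help to assemble with rRNA, were higher on the Western diet. Of 77 tested, 10 were called higher and 0 lower in null mice, where 6.44% of all genes were called higher and 6.77% lower (13.2% in either direction), with a median log2 fold change of 0.52 (75 of 77 above 0), where the 40 had a median of -0.00. In siAATF mice 9 were called higher and 0 lower, where 0.763% of all genes were called higher and 0.721% lower, with a median of 0.56 (73 of 77 above 0), where the 40 had a median of 0.11. The vector gave 0 calls on either diet, with medians of 0.06 on the Western diet and -0.04 on chow. These genes are short, and a correction for gene span left 2 called and a median of 0.15 in null mice (that of the 40 was then -0.12), and 2 called and a median of 0.42 in siAATF mice. The difference between the lists was not tested. Reads of ribosomal protein genes can also be shared with their processed pseudogenes, so their levels are uncertain.

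The count of called ribosomal protein genes rested on single libraries. In null mice it ranged from 2 (without Western null replicate 2) to 16 (without chow null replicate 2 or Western siAATF replicate 3). It moved by over 1.5 times also without Western null replicates 1 (5) and 3 (6), chow siAATF replicate 3 (6), or chow null replicates 1 (5) and 3 (3). In siAATF mice it ranged from 0 to 22 and moved by over 1.5 times without any library but chow null replicates 1 and 2. Without the 4 libraries over 25% 18S it was 2 in siAATF mice, with a median of 0.59. In null mice it was 3, with a median of 0.67, against a single chow null library whose spread was taken from the other groups.

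**Figure D5:**
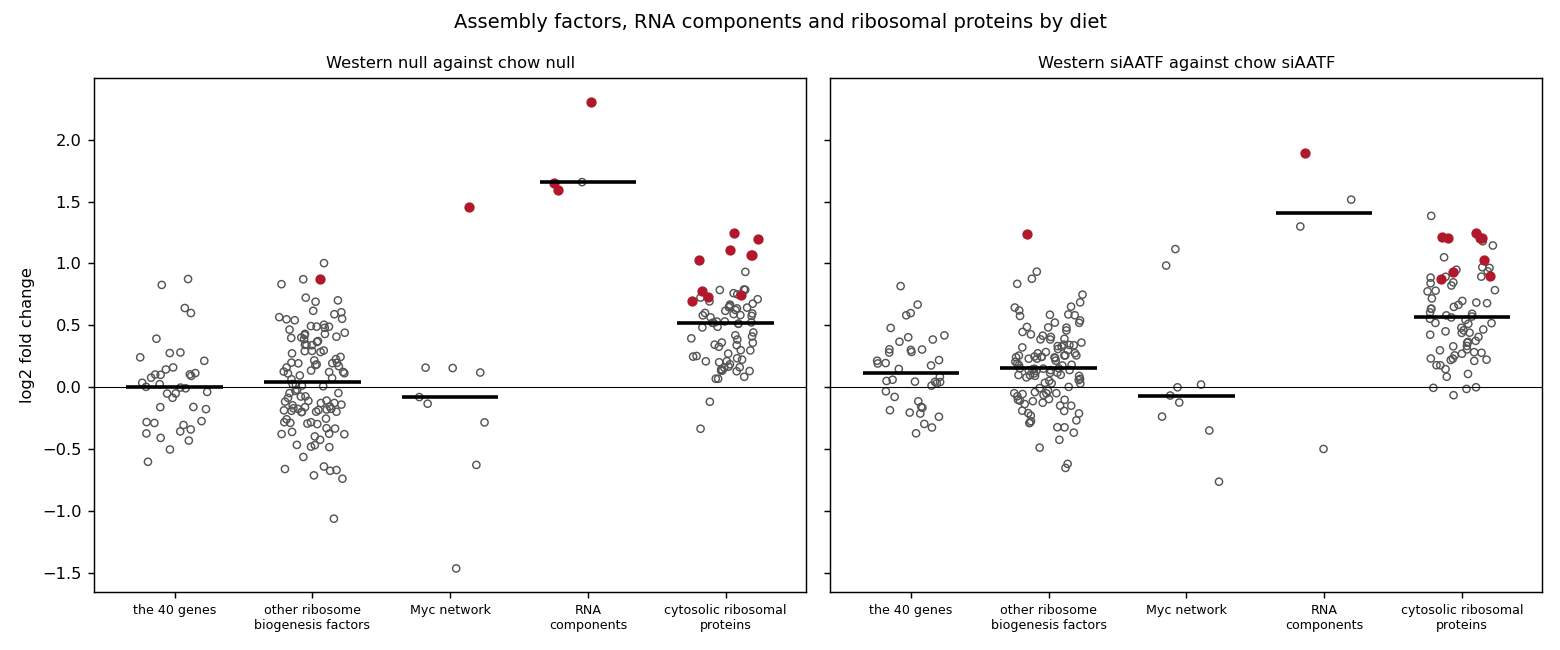
Log2 fold change of each gene for the Western diet against chow in null mice (left) and siAATF mice (right), by list; filled points passed an adjusted p of 0.05 and bars are medians. The median of the 40 genes is -0.00 and 0.11, that of the ribosomal proteins 0.52 and 0.56.

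Markers of other cell types moved with the diet in the same libraries. In null mice 7 of 7 markers of lipid-associated macrophages, 6 of 8 of macrophages and 4 of 6 of stellate cells were called higher on the Western diet. So were 3 of 5 of endothelium, 3 of 5 of cholangiocytes and 2 of 4 of cycling cells (Mki67 and Top2a), against 6.44% of all genes. Spp1 is in both the lipid-associated macrophage and the cholangiocyte list. In the cholangiocyte list 4 of 5 were above 0 (lowest -0.72), in the cycling list 3 of 4 (lowest -0.50) and in the endothelial list 4 of 5 (lowest -0.03). The macrophage markers summed to 663 to 1111 CPM in Western null and 264 to 369.9 CPM in chow null, and the cycling markers to 18.2 to 28.6 CPM in Western null and 6.06 to 14.1 CPM in chow null. For the vector on the Western diet all 7 markers of lipid-associated macrophages had a log2 fold change below 0. Of the 7, 6 were called lower, against 0.561% of all genes. Their sums were 43.6 to 70.4 CPM in Western siAATF and 267 to 372 CPM in Western null. Above 0 in that comparison were 1 of 8 macrophage, 1 of 6 stellate cell and 1 of 5 endothelial markers. So were 0 of 5 cholangiocyte, 0 of 4 cycling, 5 of 8 hepatocyte and 1 of 1 leukocyte markers. Of these lists only Spp1 was called. For the diet in siAATF mice 2 of 7 lipid-associated macrophage, 1 of 8 macrophage and 0 of 4 cycling markers were called higher, against 0.763% of all genes. The part of these cell types in the values of Myc, Nhp2 and the ribosomal proteins was not tested.

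The promoter sequences set the Myc value beside the 40. RefSeq windows of 250 bases before to 50 after the start site (GRCm38.p6) were matched for 33 of the 40 (all but Tcof1, Fbl, Npm1, Rrs1, Rrp12, Dcaf13 and Bop1). The E-box CACGTG, searched on both strands, was in 8 of the 33 (24.2%), and in 8.09% of 27025 genes with a window. The 27025 genes were not limited to those tested here, nor matched to the 33 for base content. These 8 were Aatf, Imp4, Nop2, Pes1, Rrn3, Utp20, Utp4 and Wdr43. The windows of the E-boxes that lie before the start site are shown, each 30 bases with the E-box in capitals, at Imp4 chr1:34439696-34439725 (plus strand), Nop2 chr6:125131811-125131840 (plus), and Rrn3 chr16:13780472-13780501 and chr16:13780639-13780668 (both plus); that of Aatf was given above.
Imp4: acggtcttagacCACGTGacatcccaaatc
Nop2: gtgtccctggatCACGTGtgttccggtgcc
Rrn3, first: gagcgccaaggtCACGTGcacacgcctcta
Rrn3, second: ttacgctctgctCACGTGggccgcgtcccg

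For the diet in null mice, where Myc was called higher, the 8 genes with an E-box had a median log2 fold change of -0.11 with 0 called, and the 25 with a window and no E-box 0.02 with 0 called. In siAATF mice the medians were 0.20 and 0.18. The difference between these medians was not tested, and neither was an effect of Myc on these genes. The other motifs were counted in the same windows. The ETS-type motif CCGGAAG was in 11 of 33 (9.93% of all genes), the GC box GGCGGG in 19 (37.9%), the CCAAT box in 12 (41.1%), the E-box variant CATGTG in 7 (15.9%) and the TATA box TATAAA in 2 (15.7%). These are matches of letters, and no binding was measured.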

How the data were processed

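The deposited table holds whole-number counts per gene for 12 libraries. Per the submitters' processing notes, the authors used STAR 2.7.11, featureCounts 2.0.1, DESeq2 1.42.0 and R 4.3.2, with GRCm39. The length of each of the 50499 genes equals its span, so introns are counted, and the strand setting is not given in the sources used here. No row lacks a gene name. From the counts as deposited, edgeR 4.0.16 (R 4.3.3) gave TMM library sizes, filterByExpr by group kept 11934 genes, and the robust quasi-likelihood test used 1 model of the 4 group means over 12 libraries (8 residual degrees of freedom). P-values were adjusted by Benjamini-Hochberg over all genes of a comparison, at 0.05. Intervals are 95% intervals of single genes and are not adjusted. Alternatives were DESeq2 1.42.0, limma-voom (limma 3.58.1), RLE factors, no filter, the 18S gene left out, only the groups compared, a replicate block, thinning, a correction for span and each library left out. Full statistics go to Aatf, Ngdn and Nol10 and to the genes lowest in p until 5 are named, and genes without overlap between groups are named after their values were seen. The members and lists were chosen with earlier results of these data known. Intervals and p-values rest on reads without molecular identifiers. Of the list of other factors, Polr1f, Polr1g, Polr1h and some U3 symbols had no match and were not analysed here. RefSeq windows were matched by symbol.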

Additional observations from a re-analysis of the deposited data

How the results depend on the processing

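There were 22 alternatives per pairwise comparison, and 21 for the difference of the vector effect between diets. After thinning, and for both Western siAATF comparisons in a fit of only the 2 groups compared, 39 of the 40 genes had a value. In each alternative 0 of the 40 genes were called, except for Western null against chow null. There the count was 1 with RLE size factors (13.4% of all genes were called), 1 with the 18S gene left out of library sizes (13.5%), 1 with DESeq2 (14.2%) and 2 with limma-voom (15.6%). With a library left out it was between 0 and 1, with 1 without Western siAATF replicate 3 (18.2% of all genes) and 1 without chow null replicate 2 (14.6%). The cause was not tested. Of the log2 fold changes of named genes, some turned sign, none of them called in either form. Aatf for the vector on the Western diet was 0.06, and -0.078 after thinning, and ran from -0.089 to 0.19 with a library left out. Nol10 in the same comparison was -0.017, 0.12 without the libraries over 25% 18S and 0.017 with limma-voom, and ran from -0.14 to 0.11 with a library left out (0.11 without Western siAATF replicate 2 and 0.11 without Western null replicate 2). Ngdn on chow was -0.08, 0.11 without the libraries over 25% 18S and 0.14 with limma-voom, and ran from -0.37 to 0.39 with a library left out (0.07 without chow siAATF replicate 2). For the diet in null mice Ngdn ran from -0.68 to 0.088 with a library left out, and Nol10 from -0.22 to 0.038, with 0.20 after thinning and 0.077 with the span correction. For the diet in siAATF mice Nol10 ran from -0.041 to 0.39 with a library left out. The cause of these turns was not tested.

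No pairing of the libraries by replicate number was seen. Of 12 same-numbered pairs, 1 had a correlation of deviations over 0.1 (range -0.15 to 0.26). Pairs with different numbers ran from -0.24 to 0.31. With 3 libraries per group these correlations cannot show whether same-numbered libraries shared a batch. With the replicate number as a block, 0 of the 40 were called in each comparison, and all genes called were 64, 0, 1157 and 71 in the 4 pairwise comparisons, against 104, 0, 1577 and 177 without it. With a library left out, the calls over all genes ran from 26 to 413 for the vector on the Western diet, from 658 to 2250 for the diet in null mice, from 34 to 737 for the diet in siAATF mice and from 2 to 295 for the difference of the vector effect between diets. Other settings moved the calls over all genes by over 1.5 times. Without a filter on low counts they were 572 for the vector on the Western diet, 33 on chow, 836 for the diet in siAATF mice and 331 for the difference between diets (against 23 with it). DESeq2 gave 260, 480 and 125 for the first, the third and the last of these. Thinning gave 69 for the vector on the Western diet and 107 for the diet in siAATF mice, and a fit of only the 2 groups compared gave 53 and 17. Without the libraries over 25% 18S, which leaves 1 chow null library, the diet gave 1031 in null mice and 103 in siAATF mice, and the difference 3. The block gave 14 for the difference. The counts of ribosomal protein genes under these settings were chosen after the data were seen. Depth limits these genes: the median gene had 29 counts in chow null replicate 2, and 3 counts equal 0.185 to 1.69 CPM.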
